A study of Danio rerio with 6 samples.

Results

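A group of 6 phospholipase A2 genes was followed in the mid-sections of *dgat2* mutant zebrafish embryos. They were taken by name from the deposited gene tables, as 6 of 32520 genes, and were *pla2g3*, *pla2g10*, *pla2g15*, *pla2g6*, *pla2g7* and *pla2g4aa*. *pla2g3* was selected on its difference in transcript level between mutants and wild-type siblings. Its values and calls in that contrast are therefore given as a description and are no evidence of a difference. The other members were listed beside it as family members, with earlier results of these data known.

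The samples were 6 RNA sequencing libraries from 3 dpf embryos, 3 of them from embryos homozygous for the *dgat2* allele sa13945 and 3 from their wild-type siblings. Heterozygous parents were in-crossed, embryos were sorted for an opaque or a normal yolk, and heads and tails were cut off and genotyped. Each library was made from the mid-sections of 6 embryos, and clutches 2, 3 and 4 each contributed 1 pool of mutants and 1 of wild types. The sa13945 allele is a chemically induced premature stop codon in *dgat2*, which encodes a triacylglycerol synthesis enzyme, and it was brought into the AB strain from another background. A mid-section holds the yolk sac with its yolk syncytial layer (YSL), together with trunk muscle, skin and gut. In such bulk samples fewer cells of a type and less RNA per cell cannot be told apart.

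The tables held estimated counts, and these summed to between 45958694 and 59166585 per library, with every mutant library deeper than every wild-type library. Values below are given as CPM, counts scaled to the library's normalized total, for comparisons between pools, and as TPM, which is also scaled for transcript length, for comparisons between genes. Fold changes of mutant over wild-type are given on the log2 scale as log2FC, with their standard error (SE) and, for some, the 95% confidence interval (CI). Muscle markers summed to between 78975 and 93003 CPM, and YSL and hepatocyte markers to between 9541 and 18560 CPM. Both marker sets were thus present in every library, but the latter set does not tell YSL from liver. The *dgat2* transcript itself was at 4.41 to 28.3 CPM with overlapping groups, so it did not check the genotype labels.

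Phospholipases A2 cut the fatty acid from the middle position of a glycerophospholipid and leave a free fatty acid and a lysophospholipid. Most secreted members need calcium and act outside the cell. A cytosolic member releases arachidonic acid for the synthesis of prostaglandins and leukotrienes. A calcium-independent member takes part in membrane remodelling, and further members work in lysosomes or on lipoproteins in plasma. The fatty acid that is released can be esterified again, and the lysophospholipid can be reacylated or broken down.

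The level of the 6 transcripts differed widely. *pla2g15*, which encodes the lysosomal phospholipase A2, was the most abundant at 54.5 to 176 TPM over the 6 libraries, with a mean above that of 97.0% of the genes tested. *pla2g7*, which encodes the lipoprotein-associated enzyme that also cleaves platelet-activating factor, followed at 16.3 to 23.0 TPM. *pla2g6*, which encodes the calcium-independent enzyme, was at 5.40 to 10.7 TPM. *pla2g4aa*, a gene for the cytosolic enzyme, was at 1.14 to 2.01 TPM. In this order of TPM the ranges of neighbouring genes did not overlap, and each gene was above the next in all 6 libraries. The secreted members that need calcium were at the bottom of the order, with *pla2g10* at 0.203 to 0.666 TPM and *pla2g3* at 0.0289 to 1.07 TPM. Their ranges overlapped, and *pla2g10* was above *pla2g3* in 4 of the 6 libraries.

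**Figure D1:**
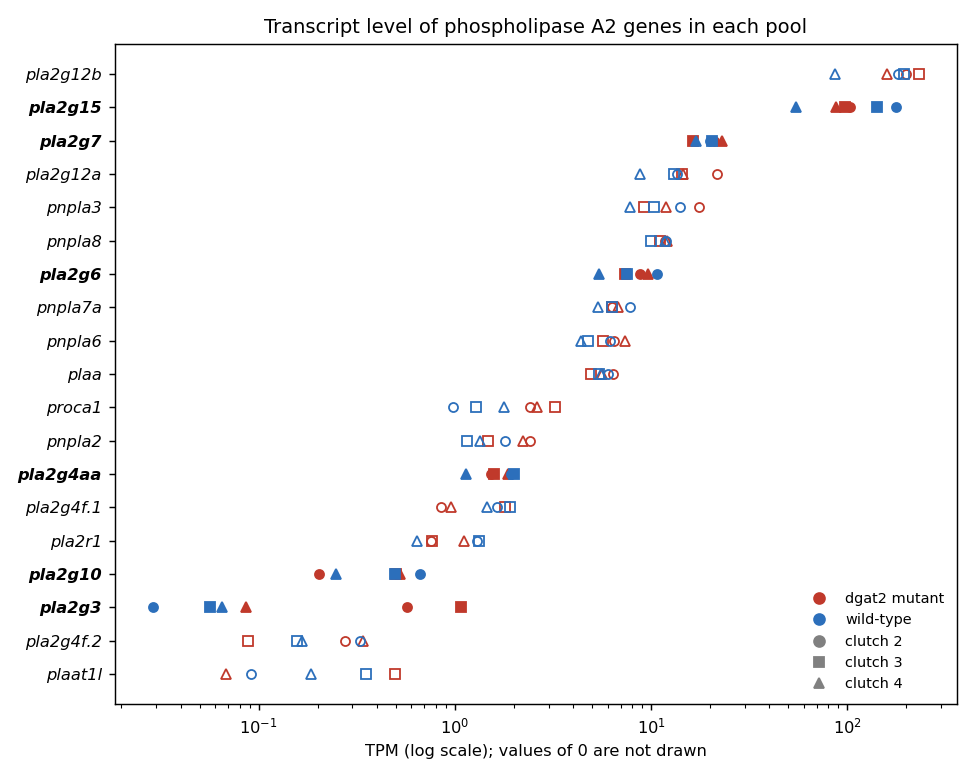
TPM in each of the 6 pools on a log axis for the 6 members (bold names, filled symbols) and the 13 other tested genes of the phospholipase A2 list (open symbols), with mutants in red, wild types in blue and the clutch shown by the symbol. *pla2g15* lies at 54.5 to 176 TPM, and *pla2g3* spreads from 0.0289 to 1.07 TPM.

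*pla2g3* encodes a secreted enzyme of the type found in bee venom, with functions described in mammals in sperm maturation and mast cells. The gene (ENSDARG00000008948) lies on the forward strand of GRCz11 chromosome 10, from 3520256 to 3532997. In the mutant pools, its transcript was counted 76 times in clutch 2, 148 times in clutch 3 and 12 times in clutch 4. In the wild-type pools of the same clutches it was counted 3, 7 and 8 times. The mutants of clutches 2 and 3 were therefore high, whereas the mutant of clutch 4 was close to the wild-type pools. Normalized for depth, the mutants were at 1.43, 2.82 and 0.194 CPM and the wild types at 0.0639, 0.140 and 0.169 CPM. The groups did not overlap, but the lowest mutant and the highest wild-type pool were only 0.194 and 0.169 CPM. Among all 22762 tested genes, 5.14% had every mutant pool above every wild-type pool. The mean was 1.48 ± 1.31 CPM in mutants, against 0.124 ± 0.0543 CPM in wild types (SD, n = 3 pools each), so the spread among mutants was nearly as large as their mean.

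The mutant to wild-type ratio of *pla2g3* was 22.4 in clutch 2 (95% exact interval 7.39 to 111). In clutch 3 it was 20.1 (9.50 to 50.8). In clutch 4 it was 1.15 (0.432 to 3.24). These intervals cover counting error only, and those of clutches 2 and 3 lay wholly above that of clutch 4. On the log2 scale the within-clutch differences were 4.49, 4.33 and 0.20. The fold change fitted over all pools by edgeR was 3.54 on the log2 scale (SE 0.91), and 3.13 (SE 0.81) with clutch as a blocking term. Left out in turn, the mutant of clutch 3 brought it to 2.68 and the mutant of clutch 4 to 4.06. Of the genes tested, 0.0176% had a log2FC at least as high, *pla2g3* included. As it was chosen on this contrast, that share is a description and no evidence. The length that the quantification assigned to *pla2g3* varied by a factor of 1.01 between libraries, which was also the median over all tested genes.

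**Figure D2:**
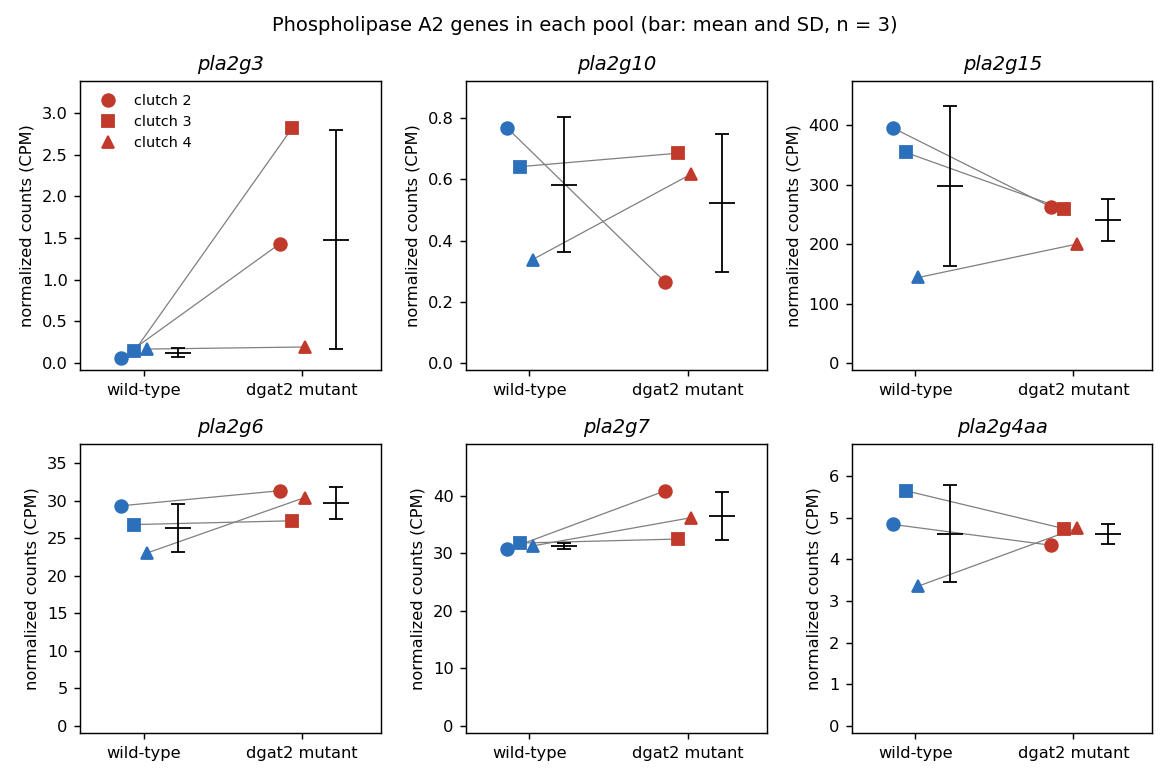
CPM of each member in the 6 pools (symbols, clutch; grey lines join the pools of a clutch; bars, mean and SD, n = 3). The *pla2g3* panel shows mutants at 1.43, 2.82 and 0.194 CPM above wild-type pools at 0.0639 to 0.169 CPM, and the *pla2g15* panel shows the wild-type pool of clutch 4 at 144 CPM below all others.

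The 6 members all had enough counts to be tested, *pla2g3* only through its mutant pools. By the quasi-likelihood test of edgeR, with p-values adjusted over all tested genes (Benjamini-Hochberg), 0 of the 5 members other than *pla2g3* were higher and 0 were lower at an adjusted p under 0.05, against 0.0132% and 0% of all genes. At an unadjusted p under 0.05 the count was also 0 of 5, against 3.21% of all genes higher and 1.99% lower. DESeq2 called 0 of these 5 at an adjusted p under 0.05 on rounded counts, with transcript length offsets, or with the offsets and clutch as a blocking term, where 0.436%, 0.459% and 1.14% of genes were called higher. With a log2FC above 1.5 asked for as well, the shares of genes called higher were 0.130%, 0.146% and 0.234%, and again 0 of the 5 were among them. The log2FCs of these 5 members ran from -0.31 for *pla2g15* to 0.23 for *pla2g7*, and the median of all tested genes was -0.01.

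*pla2g10* encodes the other secreted member that needs calcium, which in mammals is active on phosphatidylcholine of the outer membrane leaflet. It had 14, 36 and 38 counts in mutants, against 36, 32 and 16 counts in wild types of clutches 2, 3 and 4. The groups overlapped, at 0.522 ± 0.225 and 0.582 ± 0.221 CPM (SD, n = 3), and the within-clutch log2 differences were -1.54, 0.09 and 0.87. The lowest pool was thus the mutant of clutch 2, in which *pla2g3* was high. The log2FC was -0.16 (SE 0.50, 95% CI -1.30 to 0.99, edgeR adjusted p = 1.0), and its sign turned to 0.16 without the mutant of clutch 2 and to 0.09 without the wild-type pool of clutch 2. The interval took in both a fall and a rise.

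*pla2g15*, whose product also transfers acyl chains and is related to lecithin-cholesterol acyltransferase, had 13861, 13640 and 12333 counts in mutants. It had 18518, 17647 and 6830 counts in wild types. Normalized for depth this was 262, 259 and 200 CPM against 395, 354 and 144 CPM. The mutants lay close together, between the high wild-type pools of clutches 2 and 3 and the low wild-type pool of clutch 4. The mutant to wild-type ratio was 0.663 in clutch 2 and 0.733 in clutch 3 but 1.38 in clutch 4. Counting error was small, with a 95% exact interval of 1.34 to 1.43 in clutch 4 and of 0.648 to 0.678 in clutch 2, so the clutches differed beyond it. The log2FC was -0.31 (SE 0.32, 95% CI -1.04 to 0.43, edgeR adjusted p = 1.0). The mean was 240 ± 35.1 CPM in mutants, against 298 ± 134 CPM in wild types (SD, n = 3 pools each). An exact permutation test of the pools, which leaves out the pairing by clutch, gave a two-sided p of 0.5, the smallest possible being 0.1. Without the wild-type pool of clutch 4 the log2FC was -0.64 (SE 0.14, edgeR unadjusted p = 0.00253, adjusted p = 0.49). Without that of clutch 2 it was -0.05 (SE 0.33).

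The libraries had nearly the same order for *pla2g15* as for the summed YSL and hepatocyte markers. These 11 genes summed to 14454, 15674 and 12349 CPM in mutants, against 17771, 18560 and 9541 CPM in wild types of clutches 2, 3 and 4. The wild-type pool of clutch 4 was lowest on both measures and the wild-type pools of clutches 2 and 3 were highest. The sum was carried by apolipoprotein genes, with *apoa1b* alone at 27.9%, and its order did not hold for every gene in it. Of the 11 genes, 6 had a log2FC above 0, with a median of 0.06. *mttp*, which encodes the protein that loads lipid onto lipoproteins, was at 225, 155 and 193 CPM in mutants, against 150, 128 and 102 CPM in wild types (log2FC 0.59). Its mutant pools all lay above the wild-type pools, as for 5.14% of tested genes. The hepatocyte genes *fabp10a* and *ttr* had log2FCs of 0.62 and 0.81. Of the remaining genes of the list that do not encode apolipoproteins, *serpina1l* was at -0.08, *tfa* at -0.35 and *cp* at 0.15. For each 1000 CPM of these markers, *pla2g15* was at 18.1, 16.6 and 16.2 CPM in mutants, against 22.2, 19.1 and 15.1 CPM in wild types, a scale chosen after the data were seen. The groups overlapped on this scale as well. The part of YSL and hepatocyte content in the *pla2g15* values was not tested.

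**Figure D3:**
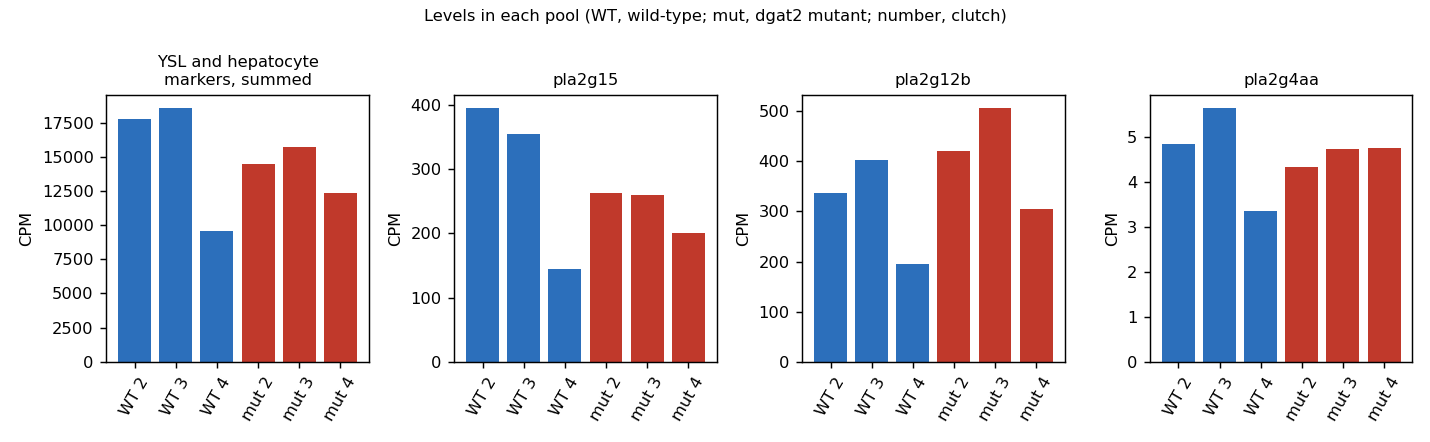
CPM in each pool of the summed YSL and hepatocyte markers, *pla2g15*, *pla2g12b* and *pla2g4aa* (blue, wild-type; red, mutant; the number is the clutch). The wild-type pool of clutch 4 is the lowest bar in every panel, at 9541 CPM for the markers and 144 CPM for *pla2g15*.

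*pla2g4aa* encodes the cytosolic enzyme with a preference for arachidonic acid. It was at 4.34, 4.74 and 4.75 CPM in mutants, against 4.84, 5.65 and 3.36 CPM in wild types. The mutant pools again fell within the range of the wild-type pools, and the wild-type pool of clutch 4 was again the lowest. The ratio of the mean CPM in mutants to that in wild types was 0.998, and the 95% CI of the log2FC was -0.48 to 0.47 (edgeR adjusted p = 1.0). Within clutches the log2 difference was -0.16, -0.26 and 0.50. A second gene listed as *PLA2G4A* (ENSDARG00000017141), which is not a member, was lower at 30 to 71 counts and overlapped between groups, with a log2FC of 0.30 (SE 0.36).

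*pla2g6* encodes the calcium-independent enzyme that is mutated in a human neuroaxonal dystrophy. It was at 31.3, 27.3 and 30.4 CPM in mutants, against 29.3, 26.8 and 23.0 CPM in wild types. The mutant was the higher pool of every clutch, by 0.09, 0.03 and 0.40 on the log2 scale, while the groups overlapped. In TPM, where the assigned transcript length counts, the mutant was lower in clutch 2 (8.80 against 10.7) and in clutch 3 (7.34 against 7.5) and higher only in clutch 4. Of all tested genes, 14.6% were higher in CPM in the mutant of all 3 clutches. The log2FC was 0.17 (SE 0.12, 95% CI -0.11 to 0.44, edgeR adjusted p = 1.0).

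*pla2g7* was at 40.9, 32.5 and 36.2 CPM in mutants, against 30.7, 31.8 and 31.3 CPM in wild types. The wild-type pools were nearly equal and all mutant pools lay above them, which was the case for 5.14% of tested genes. The within-clutch log2 differences were 0.41, 0.03 and 0.21. The log2FC was 0.23 (SE 0.11, 95% CI -0.03 to 0.48, edgeR adjusted p = 0.989), and the exact two-sided permutation test gave p = 0.1, the smallest that 3 pools against 3 allow. In humans the enzyme is made by macrophages, and the 12 macrophage and neutrophil markers summed to 81.7, 67.3 and 63.1 CPM in mutants, against 73.5, 68.7 and 70.6 CPM in wild types. The largest part of this sum, 33.8%, came from the neutrophil gene *lyz*, which was lower in every mutant pool than in any wild-type pool (log2FC -0.48). Of the 12 genes, 10 had a log2FC above 0 and the median was 0.26. The macrophage genes *mpeg1.1* and *mfap4.1* were at 0.57 and 0.74 and *mmp13a*, on chromosome 10, was at 0.59. These had the direction of *pla2g7*, and none had an adjusted p under 0.05 in edgeR. The lowest genes of the list besides *lyz* were *mpx* at -0.25, *csf1ra* at 0.03, *lcp1* at 0.07 and *cybb* at 0.12. Within clutches 2, 3 and 4 *mpeg1.1* differed by 0.43, 0.94 and 0.43, and *mfap4.1* by 1.28, 0.94 and 0.04, unlike *pla2g7* in clutch 3. The part of these cells in the value was not tested.

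For *pla2g7* and *pla2g6* the transcript length assigned by the quantification differed between libraries. The length assigned to *pla2g7*, relative to the median gene of each library, was 0.929, 0.9 and 0.827 in mutants, against 0.830, 0.740 and 0.842 in wild types. It varied by a factor of 1.25 between libraries, more than for 88.2% of tested genes. Corrected for this length, the log2FC of *pla2g7* was 0.08 in DESeq2, and the TPM of the groups overlapped, at 20.8, 16.3 and 23.0 in mutants, against 20.0, 20.5 and 16.9 in wild types. For *pla2g6* the assigned length was longest in the wild-type pool of clutch 4 at 1.94 and shortest in the wild-type pool of clutch 2 at 1.49. These pools were also the lowest and the highest in TPM, at 5.40 and 10.7. The wild-type pool of clutch 4 was the lowest in CPM as well, at 23.0, so the length alone does not account for its TPM. The corrected log2FC of *pla2g6* was 0.17, as without the correction. For each of the other 4 members the length varied by a factor of only 1.01.

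**Figure D4:**
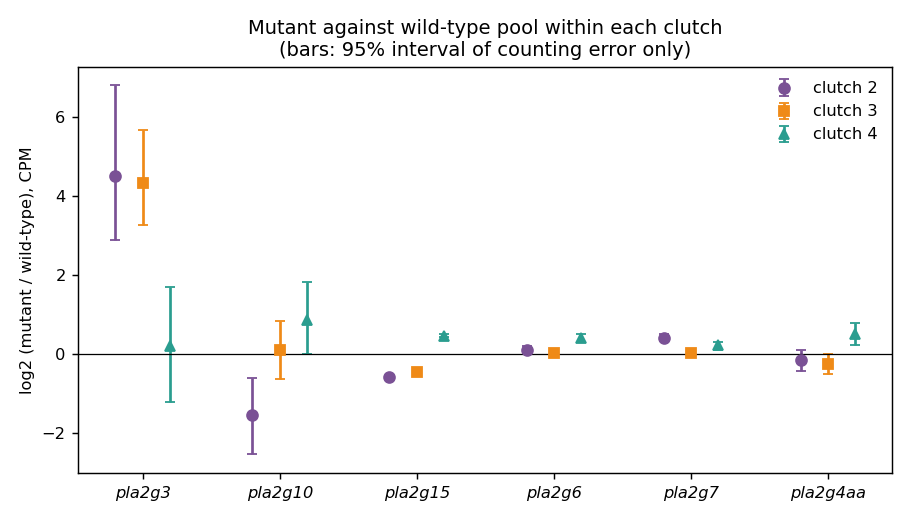
Log2 ratio of mutant to wild-type CPM within clutches 2, 3 and 4 for each member, with 95% intervals that cover counting error only. *pla2g3* is at 4.49 and 4.33 in clutches 2 and 3 and at 0.20 in clutch 4, where all 6 members lie above 0.

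The clutches differed in direction. In CPM the mutant was the higher pool for 3 members in clutch 2, for 4 in clutch 3 and for 6 in clutch 4. Each count includes *pla2g3*, which was chosen on the contrast of mutants with wild types and was higher in every clutch. In TPM the counts were 2, 2 and 6, since *pla2g6* turned in clutches 2 and 3 and *pla2g7* in clutch 3. Over all tested genes the corresponding shares in CPM were 50.3%, 49.6% and 49.1%, and shares in TPM were not computed. In clutch 4, where *pla2g3* was closest to its wild-type pool, *pla2g10*, *pla2g15*, *pla2g4aa* and *pla2g6* each had their highest ratio of mutant to wild-type. All 6 comparisons in clutch 4 share the wild-type pool with the lowest sum of YSL and hepatocyte markers. It was also the lowest wild-type pool for *pla2g10*, *pla2g15*, *pla2g4aa* and *pla2g6*, but not for *pla2g3* or *pla2g7*. The part of marker content in this count was not tested.

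*pla2g3* and *dgat2* are on the same chromosome. In siblings sorted by the mutation, other variants carried on that chromosome can be sorted with it. With genes placed in order along GRCz12tu, an assembly used for their order only, 313 tested genes lay between them. Of the 522 tested genes placed on chromosome 10 by name, *pla2g3* had the highest log2FC, a rank that describes a gene chosen on this contrast. Above 1.5 were 5 (0.958%), *pla2g3* included. Among genes placed on other chromosomes, 46 of 14379 (0.32%) were above 1.5. An unadjusted p under 0.05 in edgeR was found for 72 of the chromosome 10 genes (13.8%), again with *pla2g3* included, and for 5.09% of the genes placed elsewhere. Among the nearest tested genes, 5 to either side, an unadjusted p under 0.05 in edgeR was found for 1, against 5.20% of all genes. None of these neighbours differed by as much as *pla2g3*. The one with a low p was *lyrm7*, at a log2FC of 0.34 (SE 0.14, adjusted p = 0.951). The adjoining *ptpn11a*, a gene for a tyrosine phosphatase, was at 0.15 but followed the pattern of *pla2g3* over the libraries most closely of all tested genes, and *TTC28* on the other side was at -0.15. The part of linkage in the *pla2g3* values was not tested.

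**Figure D5:**
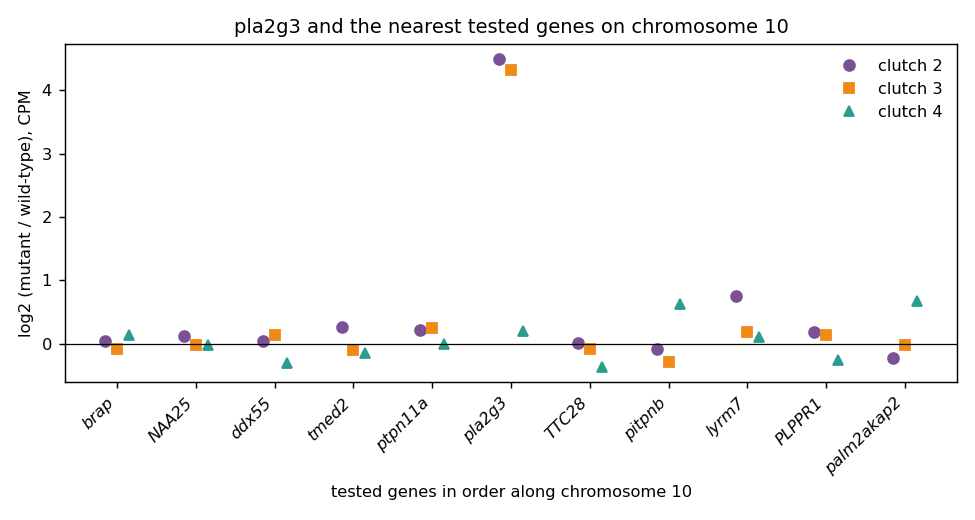
Log2 ratio of mutant to wild-type CPM within each clutch for *pla2g3* and the 5 nearest tested genes on each side, in order along chromosome 10. *pla2g3* reaches 4.49 and 4.33 in clutches 2 and 3, and no neighbour exceeds the 0.75 of *lyrm7* in clutch 2.

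The genes with the pattern most like *pla2g3* were sought by the Pearson correlation of log2 CPM over the 6 libraries, as a description. They were *ptpn11a* (r = 0.997), *C7H19orf12* (0.996), *ctsba* (0.993), *trim35-21* (0.986) and *elovl6* (0.984). With so few libraries, 123 of the 22761 other genes had r above 0.9. Likeness of pattern did not mean likeness of size. *ptpn11a* differed by only 0.21, 0.24 and -0.01 on the log2 scale within clutches 2, 3 and 4. *elovl6*, which encodes a fatty acid elongase, differed by 1.98, 2.50 and 0.45, and so was also highest in the mutants of clutches 2 and 3. It had 4300, 7874 and 2598 counts in mutants, against 967, 1320 and 1455 counts in wild types. Its log2FC was 1.81 (SE 0.40, edgeR adjusted p = 0.393).

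Beyond the members, a list of further phospholipases A2 and their relatives held 16 genes of the table, of which 13 were tested. In edgeR 3 of these were higher and 0 were lower at an unadjusted p under 0.05, against 3.21% and 1.99% of all genes. After adjustment 0 of them passed in either direction. *pla2g12b* encodes a secreted family member without enzyme activity that takes part in the loading of lipoproteins with lipid in mice and zebrafish. It was the most abundant gene of the group, at 198, 232 and 160 TPM in mutants, against 181, 195 and 86.4 TPM in wild types. In CPM the mutant was the higher pool of every clutch, with log2 differences of 0.32, 0.33 and 0.63, but the groups overlapped and the log2FC of 0.39 (SE 0.27) had an adjusted p of 1.0 in edgeR. With clutch as a blocking term the log2FC was 0.43 (SE 0.11) with an adjusted p of 0.213 in edgeR, and DESeq2 with offsets and the blocking term called it higher at 0.45 (SE 0.13, adjusted p = 0.0286). For each 1000 CPM of the YSL and hepatocyte markers it was at 29.1, 32.3 and 24.6 CPM in mutants, against 19.0, 21.7 and 20.5 CPM in wild types. That scale was chosen after the data were seen. The share of all genes without overlap on it was not computed, so nothing is drawn from the separation of the groups there. Its paralogue *pla2g12a* (ENSDARG00000070454; GRCz11 chromosome 1, 12061284 to 12064799) was at 32.0, 23.7 and 19.5 CPM in mutants, against 18.1, 19.0 and 13.7 CPM in wild types. All mutant pools lay above the wild-type pools, which was the case for 5.14% of tested genes. The log2FC of *pla2g12a* was 0.56 (SE 0.20, edgeR adjusted p = 0.874).

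*proca1*, whose product carries a domain like that of the bee venom type enzyme, was at 8.76, 12.3 and 8.54 CPM in mutants, against 3.15, 4.63 and 6.76 CPM in wild types. Its within-clutch log2 differences of 1.47, 1.41 and 0.34 were larger in clutches 2 and 3 than in clutch 4, as for *pla2g3*. The log2FC was 1.03 (SE 0.28), and the adjusted p was 0.596 in edgeR and 0.16 with clutch as a blocking term. DESeq2 with length offsets gave an adjusted p of 0.0548, and of 0.00853 with the blocking term added. The third gene at an unadjusted p under 0.05 was *pnpla2*, the gene for adipose triglyceride lipase, at 0.53 (edgeR adjusted p = 0.935). *pla2g1b*, which in mammals encodes the digestive enzyme of the pancreas, had only 1 to 11 counts per library and was not tested, although pancreatic acinar markers summed to between 213 and 1510 CPM. *pla2r1*, the gene for a receptor of secreted phospholipases A2, was at -0.06 (SE 0.20).

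The 4 tested genes for intracellular platelet-activating factor acetylhydrolase subunits had log2FCs from -0.14 to 0.01, and 0 had an unadjusted p under 0.05. Of 14 other phospholipases, 4 were higher at an unadjusted p under 0.05 and 0 were lower, against 3.21% and 1.99% of all genes. A log2FC above 0 was found for 13 of the 14, and for 48.2% of all tested genes. *pla1a*, which encodes a phospholipase A1 of phosphatidylserine, was at 8.36, 9.32 and 6.77 CPM in mutants, against 2.30, 4.49 and 3.78 CPM in wild types. Its mutant pools all lay above the wild-type pools, as for 5.14% of tested genes. The log2FC was 1.21 (SE 0.25, edgeR adjusted p = 0.341, and 0.0845 with clutch as a blocking term). DESeq2 with transcript length offsets gave it an adjusted p of 0.000721, where 0.459% of genes were called higher. The others were *lipca*, the hepatic lipase gene, at 1.26 (SE 0.45), *ddhd2* at 0.50 and *pld1a* at 0.27, with adjusted p-values of 0.863 to 0.896 by edgeR. *ddhd2*, like *pla2g3*, is on chromosome 10. Markers of gut and pancreas differed in the same direction. All 4 intestine markers had a log2FC above 0 (median 0.69), as had all 11 pancreatic acinar markers (median 0.73). An unadjusted p under 0.05 in edgeR was found for 1 of the intestine and 0 of the acinar markers. *lipca* differed within clutches by 1.51, 0.40 and 1.37 on the log2 scale, and the intestine marker *vil1* by 1.01, 0.00 and 0.89. Of the other intestine markers, *fabp2* differed by 1.05, 0.04 and 0.48 in clutches 2, 3 and 4. In the same order *cdx1b* differed by 0.21, 0.21 and 0.39, and *fabp1b.1* by 1.1, 0.53 and 0.64. The hepatocyte gene *ttr* differed within clutches by 0.72, 0.50 and 1.11, and *fabp10a* by 0.67, 0.32 and 0.85. Others of that marker list did not share this direction in every clutch. *tfa* differed by -0.65, -0.7 and 0.49, *serpina1l* by -0.08, -0.55 and 0.53, and *cp* by -0.24, 0.25 and 0.8. Of the 11 YSL and hepatocyte markers, 6 had a log2FC above 0. The part of gut, pancreas and liver content in these values was not tested.

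Among 19 tested genes that reacylate or break down lysophospholipids, 2 were higher and 0 were lower at an unadjusted p under 0.05. The shares over all genes were 3.21% and 1.99%. *tmem86b*, whose mammalian counterpart encodes a lysoplasmalogenase, was the single gene of all lists past the adjustment in edgeR, at 183, 133 and 126 CPM in mutants, against 44.7, 34.0 and 33.2 CPM in wild types (log2FC 1.98, adjusted p = 0.0207). In contrast to *pla2g3*, it differed by nearly the same amount in every clutch, at 2.03, 1.97 and 1.92. The other was *enpp6*, which encodes a choline phosphodiesterase, at 0.30 (edgeR adjusted p = 0.939).

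The 19 tested genes of the eicosanoid list, a pathway fed by arachidonic acid from phospholipases A2, had a median log2FC of -0.02. Of these, 1 was higher and 1 was lower at an unadjusted p under 0.05, against 3.21% and 1.99% of all genes. Both encode lipocalin-type prostaglandin D synthases, *ptgdsa* at 0.94 (SE 0.27, edgeR adjusted p = 0.671) and *ptgdsb.1* at -0.63 (SE 0.18, adjusted p = 0.668). *ptgdsa* is on chromosome 10, as *pla2g3* is. *ptgdsb.1* was called lower by DESeq2 with offsets and clutch as a blocking term (adjusted p = 0.025), where 0.477% of genes were called lower. *alox5b.2*, a gene for 5-lipoxygenase, had too few counts to be tested in edgeR, at 46, 9 and 43 rounded counts in mutants, against 4, 1 and 5 in wild types. All mutant pools lay above the wild-type pools, which was the case for 5.14% of the genes that were tested. The ratio was 10.2 in clutch 2 (95% exact interval 3.72 to 39.0), 8.54 in clutch 3 (1.18 to 374) and 6.60 in clutch 4 (2.62 to 21.3). DESeq2 with length offsets put its log2FC at 3.06 (SE 0.94, adjusted p = 0.11). The related *alox5b.3* had estimated counts of 31.63, 14.15 and 42.12 in mutants, against 31.07, 26.69 and 4.573 in wild types. Its groups overlapped, and its within-clutch log2 differences were -0.13, -1.02 and 2.69. The estimates of both genes were fractional, so they depend on how Salmon divided reads, which the intervals do not cover. The cyclooxygenase genes *ptgs1*, *ptgs2a* and *ptgs2b* were at -0.13, -0.09 and 0.24.

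Annexins, some of which inhibit phospholipase A2 in mammals, were in a list of 9 regulators. At an unadjusted p under 0.05, 3 of the 9 were lower and 0 were higher, against 1.99% and 3.21% of all genes. The lower genes were *anxa1a* at -0.28, *anxa1c* at -0.72 and *anxa2a* at -0.33, with adjusted p-values of 0.874 to 0.935 by edgeR. The 2 genes of the list above 0 were *anxa1b* at 0.15 (SE 0.36) and *s100a10a* at 0.28 (SE 0.22). With clutch as a blocking term, *anxa1c* fell by 0.72 on the log2 scale with an adjusted p of 0.0338, where 0.0659% of all genes were called lower, and within clutches it was at -0.76, -0.68 and -0.72. The sum of epidermal markers moved in the direction of the 3 lower annexins. The 7 epidermal genes summed to 13435, 15151 and 12590 CPM in mutants, against 15906, 18091 and 16041 CPM in wild types. In this sum every mutant pool was below every wild-type pool, but *krt4* alone made up 52.4% of it. Of the 7 genes, 2 had an unadjusted p under 0.05 in edgeR and the median log2FC was -0.27. *krt91* was at 0.03 and *epcam* at -0.09, and both overlapped between groups. The part of skin content in the annexin values was not tested.

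Over all lists, 10 of 78 tested genes were higher and 4 were lower at an unadjusted p under 0.05, which was 17.9% against 5.20% of all tested genes. Their median log2FC was 0.04. The lists were drawn up with earlier results of these data known, so these counts describe the genes and are no independent evidence.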

How the data were processed

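RNA from pools of 6 mid-sections was poly(A)-selected and sequenced. The authors trimmed adapters, removed ribosomal RNA reads, mapped reads to GRCz11 with STAR 2.7.9a and quantified them with Salmon 1.10.1. The authors deposited estimated counts per gene, not scaled for depth, and TPM, scaled for transcript length and depth. A value therefore depends on how Salmon divided reads among transcripts and on the length it assigned, which was recovered as estimated count over TPM.

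Estimated counts were rounded to whole numbers. The chief test was edgeR 4.0.16 (R 4.3.3) with TMM factors, filterByExpr, genotype as the only term, the quasi-likelihood test, and Benjamini-Hochberg adjustment over 22762 genes. The standard error of a fold change was its size on the log2 scale divided by the square root of the F statistic. CPM used the same factors. Alternatives were the clutch as a block, RLE factors, DESeq2 1.42.0, other filters, limma 3.58.1 (log2 of TPM with a pseudocount of 1 or 0.1), and each library left out. The tests were tested on simulated counts.

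The labels give the pairing by clutch. Deviations from genotype means correlated across genes at 0.351, 0.309 and 0.185 within clutches 2, 3 and 4, and at 0.0311 or less between clutches. Each group held 3 pools, which sets the precision of every comparison. Intervals on ratios within a clutch are exact (Clopper-Pearson) and cover counting error only.

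The members and lists were chosen with earlier results of these data known. Besides the members, named genes were those of the lists with an unadjusted p under 0.05 in edgeR or an adjusted p under 0.05 with the block, the 5 genes most like *pla2g3*, its 5 tested neighbours on each side, *dgat2*, and markers. *pla2g12b*, *pla2g1b*, *pla2r1*, *PLA2G4A*, *alox5b.2*, single marker genes and the cyclooxygenase genes were added once their values were known. Positions in GRCz11 are those in the study's annotation of these genes. Genes were ordered by name in GRCz12tu, where 65.5% of tested genes were found. Sequences were not analysed here.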

Additional observations from a re-analysis of the deposited data

How the results depend on the processing

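In edgeR 0 of the 6 members, *pla2g3* included, were called, against 3 of all 22762 tested genes. The count of 0 members held with the clutch as a replicate block and with RLE factors, where 77 and 3 of 22762 genes were called. It held with no filter on low counts (9 of 28272 genes called) and in limma with no filter (2 of 28324). With a minimum of 1 CPM, or in limma with a minimum of 1 TPM, 0 of the 4 members tested were called. Over all genes these called 3 of 19150 and 6 of 17965, and *pla2g3* and *pla2g10* were not tested. With each library left out in turn the count was 0 in every case, and 0 to 4 of all genes were called. Where so few genes were called, a count of 0 says little about the members. DESeq2 called 1 member, *pla2g3*, in each of its 3 fits, also past both thresholds. It was chosen on this contrast, so the call is no evidence of a difference. Its log2 fold change was 3.57 on rounded counts, 3.58 with transcript length offsets and 3.12 with the offsets and the clutch as a replicate block. Past both thresholds these fits called 0.130%, 0.146% and 0.234% of all genes higher. The cause of this difference between the tools was not tested. In the other fits *pla2g3* was at 3.13 with the block alone, 3.54 with RLE factors or no filter, and 0.54 in limma on log2(TPM + 1) with no filter, where the pseudocount is larger than most of its values. With 1 library left out it ranged from 2.68 to 4.06.

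*pla2g10* reversed to 0.16 and 0.09 without the mutant or wild-type pool of clutch 2, in a range of -0.43 to 0.16. *pla2g4aa* lay at 0 and had no stable sign, with 0.02 under the block, 0.00 in DESeq2 with offsets, 0.03 in DESeq2 with offsets and block, 0.01 in limma on log2(TPM + 0.1), and -0.19 to 0.17 (0.04, 0.03 and 0.17 where it reversed) with 1 library left out. *pla2g15*, *pla2g6* and *pla2g7* kept their direction in all 16 alternatives and were called in none. Of the genes in the pathway lists, 1 was called by edgeR and 2 with the replicate block, where 3 and 77 of all 22762 tested genes were called. DESeq2 called 3, 2 and 6 of the list genes on rounded counts, with offsets, and with offsets and block. Over all genes it called 160 of 23873, 171 of 23321 and 359 of 22242. The 3 limma fits called 0 of the list genes and 2 to 6 of all genes. With 1 library left out, 0 to 1 of the list genes were called, and 0 to 4 of all genes. Low counts limit what could be seen for *pla2g3* and *pla2g10*, which had 3 to 148 and 14 to 38 counts per library.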
